A study of Mus musculus with 36 samples.

Results

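Bone-marrow derived macrophages that had been kept together with glioma cells were compared 6 h after they were given myelin debris with the same kind of culture at 0 h. The comparison rests on 6 of the 36 libraries of the series, 3 labelled 6 h and 3 labelled 0 h, chosen by their titles, and covers every gene of the count table. The 6 h group is macrophages from co-culture whose treatment label is 6 hour myelin debris, and the 0 h group is macrophages from co-culture whose treatment label is Control. In both, the partner cells were the tumour cell line PDG-Ink4a Recurrent, from a mouse glioma model with enforced PDGFB expression in Nestin-positive progenitors in an Ink4a/Arf-null background, and the source label of both is bone marrow and brain tumour. Macrophages kept alone at 6 h and at 0 h, 3 libraries each, served for comparison. The labels give no strain, age or donor for the macrophages and no length of culture at 0 h, so myelin and time in culture cannot be told apart. The labels name no separate animal or dish behind each library, so how much of the spread behind the p-values is technical is not known. The tumour cells are 1 line.

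Macrophages take up myelin debris and break it down in lysosomes, acid compartments whose pump, enzymes and transporters release sugars, amino acids, sphingolipid parts and cholesterol. A load of free cholesterol leads indirectly to activation of LXR, a nuclear receptor that raises export genes such as Abca1 and Abcg1. Such a load also shuts off SREBP, the factor that drives cholesterol and fatty acid synthesis. Loaded lysosomes also signal through the Rag GTPases, Ragulator and folliculin to the kinase mTORC1 and to TFEB, TFE3 and MITF, factors that bind the sequence TCACGTG in promoters of lysosomal genes.

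The 6 libraries held 10091982 to 14055926 counts. All 14 macrophage markers were detected, with a summed level of 19223 to 20721 CPM (counts per 1e6 counts) at 6 h and 18364 to 21555 CPM at 0 h. The tumour cell share, read from 50 tumour cell genes, was 0.977%, 3.34% and 1.34% in 6 h libraries 001, 002 and 003, and 1.19%, 3.43% and 1.93% in those of 0 h, a difference of -0.302 percentage points (exact permutation test over unpaired libraries, two-sided p = 0.7, where 0.1 is the smallest p that 3 against 3 allow). Within each library number the share was lower at 6 h than at 0 h, and that paired difference was not tested. Ptprz1 and Bcan, markers of PDGFB-driven glioma, were at 0, and 7 of the 19 glioma markers in the table stood under 1 CPM in all 6 libraries. Others on that list were present, among them Cspg4 (57.1 to 96.8 CPM at 6 h, 61.3 to 94.5 CPM at 0 h) and Col1a1 (87.9 to 312 CPM at 6 h, 111 to 373 CPM at 0 h). The summed level of the list, most of it Vim, was 5966 to 8298 CPM at 6 h and 5712 to 8571 CPM at 0 h. In macrophages kept alone at 0 h the sum was 3340 to 4496 CPM. Fibroblast markers, which in this series come with the tumour cells, summed to 207 to 644 CPM at 6 h and 262 to 757 CPM at 0 h, against 2.71 to 10.6 CPM in macrophages kept alone at 0 h. Libraries numbered 001 stood apart in the transcripts CT010467.1 and Lars2. CT010467.1 took 4.08% of counts in 6 h library 001 and 12.8% in 0 h library 001. In libraries 002 and 003 it took 0.393% and 1.22% at 6 h, and 0.539% and 0.485% at 0 h. Lars2 took 0.839% in 6 h library 001 and 2.26% in 0 h library 001. In libraries 002 and 003 Lars2 took 0.0537% and 0.176% at 6 h, and 0.0882% and 0.0882% at 0 h. Xist and Ddx3y showed that the macrophages numbered 001 were male and those numbered 002 and 003 female, in both groups, which puts a different animal behind number 001. Levels below are CPM after TMM normalisation, changes are log2 values ± SE with 6 h over 0 h, and a gene was called at an edgeR quasi-likelihood adjusted p under 0.05 over 13165 tested genes.

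The response at 6 h was small in size, and as these are bulk samples, fewer cells of a type and less RNA per cell cannot be told apart. Of 13165 genes 236 passed (1.79%), 127 higher (0.965%) and 109 lower (0.828%), and 12 of the higher and 7 of the lower genes differed by 2-fold or more. The median change was 0.50 among the higher genes and -0.49 among the lower ones. All 236 moved the same way in each of the 3 same-number pairs of libraries. The test that selected them has library number as a block, so this agreement follows largely from the selection. The 3 libraries of 6 h and the 3 of 0 h did not overlap for 121 of the 127 higher and 105 of the 109 lower genes, against 21.1% of all tested genes. The adjusted p of the called genes ran from 0.00485 to 0.0498, and the calls rested on individual libraries. Without 6 h library 001, 002 or 003 the count was 140, 13 and 10, and without 0 h library 001, 002 or 003 it was 47, 0 and 26. Without 0 h library 002, 1639 genes had an unadjusted p under 0.05, and with all libraries 2228 did. Of the 114 genes whose values are given by name, 96 were called, and all of these kept their direction in every fit that tested them. Those fits reuse the libraries that selected the genes, so the direction could hardly change and is no separate check. Without the library number as a block 28 genes passed, 16 higher and 12 lower.

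**Figure D1:**
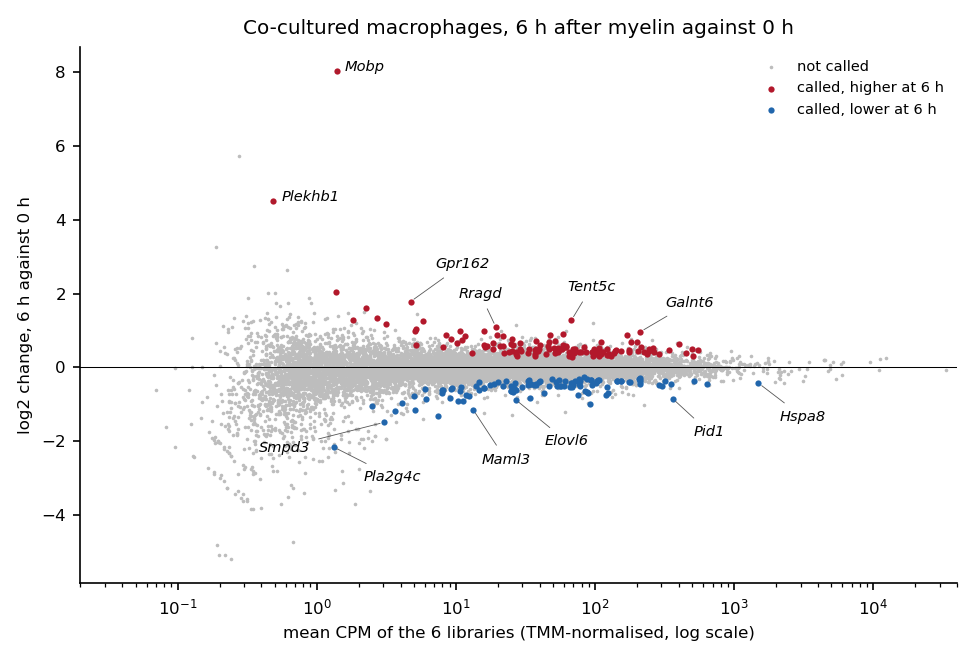
Log2 change at 6 h over 0 h (vertical axis) against mean CPM of the 6 libraries (log scale) for the genes tested in co-cultured macrophages; red and blue points are the 127 called higher and 109 called lower genes. Most called genes lie between -1 and 1; Mobp and Plekhb1, almost without counts at 0 h, stand far above the rest at heights that depend on the prior count of the fit.

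A myelin transcript with no counts at 0 h appeared at 6 h. Mobp, which encodes myelin-associated oligodendrocytic basic protein of the myelin sheath (chromosome 9, 120149707 to 120181484, mm10), had 40, 20 and 44 counts in 6 h libraries 001, 002 and 003, and 0 in each 0 h library. That is 2.83 CPM over the group at 6 h, at least 32.8-fold higher than the limit of 3 counts over the 0 h group, and the gene was called (adjusted p = 0.00485). By 24 h the 3 libraries of co-cultured macrophages held 23 counts, or 0.647 CPM. Plekhb1, a gene expressed in glia and photoreceptors, had 34 counts at 6 h and 1 at 0 h, a ratio of 32.2 with a 95% counting interval of 5.40 to 1308, and 5 counts at 24 h. Other myelin genes did not follow. Mbp, part of whose locus is transcribed in blood cells, had 114 CPM over the 6 h group and 116 CPM over the 0 h group. Cnp had 34.9 CPM over the 6 h group and 37.6 CPM over the 0 h group, and Mal, Cldn11, Opalin, Ermn and Ugt8a were at 0 in all 6 libraries. The partner tumour cells of the same co-cultures held 7 counts of Mobp at 6 h and 1 at 0 h, a ratio of 6.21 with a counting interval of 0.798 to 280.0, and a level of 0.172 CPM at 6 h. The source of the Mobp and Plekhb1 counts was not tested.

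Some genes of the lysosome rose in small steps, and most of those listed were not called. Of 22 transporters and channels of the lysosomal membrane, a list chosen after the values were seen, 8 rose and none fell. Among all tested genes 0.965% were called higher. The median change of the list was 0.30, against -0.002 over all tested genes. As the list was chosen with the values known, these contrasts are no test, and the same holds for the other lists made afterwards. Slc17a5, which exports sialic acid, stood at 69.7, 61.0 and 74.3 CPM at 6 h, against 44.5, 46.2 and 52.7 CPM at 0 h (0.51 ± 0.08, adjusted p = 0.0144). Ctns, the cystine exporter, stood at 65.6, 54.4 and 62.9 CPM at 6 h and at 41.4, 39.4 and 47.1 CPM at 0 h (0.51 ± 0.12). The 6 h libraries lay above all 0 h libraries for both genes. Pqlc2, an exporter of cationic amino acids (0.50 ± 0.09), Slc36a1, which moves small neutral amino acids with protons (0.34 ± 0.07), and the ion channels Mcoln2 (0.71 ± 0.17) and Tpcn2 (0.42 ± 0.09) rose too, as did Hgsnat, which acetylates heparan sulfate across the membrane (0.42 ± 0.07), and Gpr137b (0.45 ± 0.10). Slc38a9 (-0.17) and Tpcn1 (-0.15) were among the members that were not called.

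The other parts of the organelle gave fewer calls, and 0.965% of all tested genes were called higher. Of 18 subunits of the proton pump, also listed afterwards, 2 rose, with a median of 0.19: Tcirg1, the a3 subunit of the membrane sector (645, 589.8 and 519 CPM at 6 h, 396, 389.6 and 459 CPM at 0 h, 0.49 ± 0.10), and Atp6v1d of the cytosolic sector (0.41 ± 0.10). Of 27 genes on the lysosome list, mostly soluble enzymes and membrane proteins, 1 was called, Glb1, the beta-galactosidase that trims gangliosides and glycoproteins (chromosome 9, 114401076 to 114474898), with 123, 115 and 133 CPM at 6 h and 98.9, 87.7 and 102 CPM at 0 h (0.36 ± 0.07, adjusted p = 0.0162). The Tmppe gene lies in the same place, so the counts of Glb1 are uncertain as separate. Changes were positive for 26 of the 27 members, against 49.6% of all tested genes, with a median of 0.19, and same-number pairs gave medians of 0.21, 0.24 and 0.11. Sgsh (0.52, adjusted p = 0.058) and Gla (0.50, adjusted p = 0.054) were not called. Outside the list, Hyal1, a lysosomal hyaluronidase, stood at 18.2, 11.3 and 12.9 CPM at 6 h and at 8.61, 5.07 and 7.79 CPM at 0 h (0.99 ± 0.18), in a place it shares with Naa80. Nceh1, a neutral hydrolase of cholesterol esters, stood at 641, 605 and 684 CPM at 6 h and at 435, 442 and 511 CPM at 0 h (0.48 ± 0.08). Lgals8, a galectin that marks damaged endosomes for autophagy (128, 115 and 118 CPM at 6 h, 89.4, 87.7 and 90.7 CPM at 0 h, 0.43 ± 0.07), and Optn, an autophagy receptor (0.86 ± 0.18), rose as well. Lgals8 overlaps Heatr1.

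The nutrient-sensing machinery on the lysosome gave 4 rises and no fall among 18 listed genes, again a list chosen afterwards, with a median of 0.11. Of all tested genes 0.965% were called higher. Rragd, a Rag GTPase (chromosome 4, 32983037 to 33022180), stood at 22.7, 21.1 and 35.2 CPM at 6 h, against 12.3, 8.84 and 16.1 CPM at 0 h (1.10 ± 0.21, adjusted p = 0.0254). Rragc, its close relative, stood at 292, 256 and 303 CPM at 6 h, against 203, 188 and 215 CPM at 0 h (0.49 ± 0.08, adjusted p = 0.0144). Flcn, the folliculin that switches these GTPases, stood at 78.0, 64.0 and 70.7 CPM at 6 h, against 46.4, 43.0 and 49.8 CPM at 0 h (0.61 ± 0.12). For each of the 3 the lowest 6 h library lay above the highest 0 h library. Lamtor3, a Ragulator subunit, rose by 0.49 ± 0.11, and Stk11ip, a lysosomal partner of the kinase Stk11, rose by 0.58 ± 0.11. Of the 4 MiT/TFE factors, Tfec, the member found mainly in myeloid cells, rose (20.3, 29.8 and 27.6 CPM at 6 h, 13.2, 20.1 and 18.7 CPM at 0 h, 0.57 ± 0.12), with the lowest 6 h library just above the highest 0 h library. Tfe3 (0.06), Tfeb (-0.19) and Mitf (-0.38) were not called.

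The RefSeq promoters of called genes were searched for TCACGTG on both strands, since this is the site those factors bind. Each window reaches from 250 bases before to 50 bases after the gene start, in build GRCm38.p6. The letters were present in 15 of the 105 called higher genes with a promoter entry (14.3%), 2 of the 88 called lower genes with one (2.27%), 7.10% of the tested genes with one and 4.29% of all genes in the table. The contrast was smaller for the 6 core letters CACGTG, held by 16 of the 105 higher genes (15.2%) and 8 of the 88 lower genes (9.09%). These core letters were in 11.9% of the tested genes with an entry and 8.09% of all genes in the table. Only 74.5% of the tested genes had an entry, so the shares over tested genes are void as a check. Of the lysosome list 10 of 23 genes with an entry held TCACGTG (43.5%), and of the transporters and channels 6 of 18 (33.3%). Of the lysosome list 1 gene was called, and the transporters were listed afterwards. These shares therefore describe the lists and not the genes that rose. Slc36a1, Glb1, Nceh1, Rragc, Cry1, Sgms2, Clk2, Pfkfb3 and Nxpe4 are among the 15, and Flcn, Rragd, Tcirg1 and Atp6v1d are not. The 3 windows printed here are of lysosomal and lipid genes that rose, with the matched letters, or CACGTGA where the match lies on the other strand, in capitals. The window of Slc36a1 lies on the plus strand of chromosome 11 from 55204090 to 55204389 and holds 3 matches, a pair of which overlap. The window of Glb1 lies on the plus strand of chromosome 9 from 114400828 to 114401127, with 1 match, and that of Nceh1 on the plus strand of chromosome 3 from 27182754 to 27183053, with 1 match. All matches begin within 50 bases before the gene start, and the overlapping pair of Slc36a1 runs across it. A match describes the letters and does not show that a factor binds there.
Slc36a1: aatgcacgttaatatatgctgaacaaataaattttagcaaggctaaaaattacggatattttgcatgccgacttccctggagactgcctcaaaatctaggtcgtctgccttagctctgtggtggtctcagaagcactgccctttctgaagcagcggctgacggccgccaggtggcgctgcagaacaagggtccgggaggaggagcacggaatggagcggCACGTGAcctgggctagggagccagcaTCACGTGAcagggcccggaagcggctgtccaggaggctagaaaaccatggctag
Glb1: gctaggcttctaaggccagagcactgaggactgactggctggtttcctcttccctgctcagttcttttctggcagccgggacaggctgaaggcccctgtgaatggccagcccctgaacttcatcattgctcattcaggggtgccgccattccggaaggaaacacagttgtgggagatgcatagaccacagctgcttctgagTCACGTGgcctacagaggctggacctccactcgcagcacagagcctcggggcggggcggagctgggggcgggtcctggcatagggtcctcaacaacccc
Nceh1: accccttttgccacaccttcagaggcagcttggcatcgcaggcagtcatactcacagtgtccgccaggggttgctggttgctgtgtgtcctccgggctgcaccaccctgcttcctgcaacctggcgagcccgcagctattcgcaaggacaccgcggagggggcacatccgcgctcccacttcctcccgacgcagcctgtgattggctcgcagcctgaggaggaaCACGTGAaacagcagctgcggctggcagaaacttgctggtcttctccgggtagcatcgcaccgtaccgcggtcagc

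**Figure D2:**
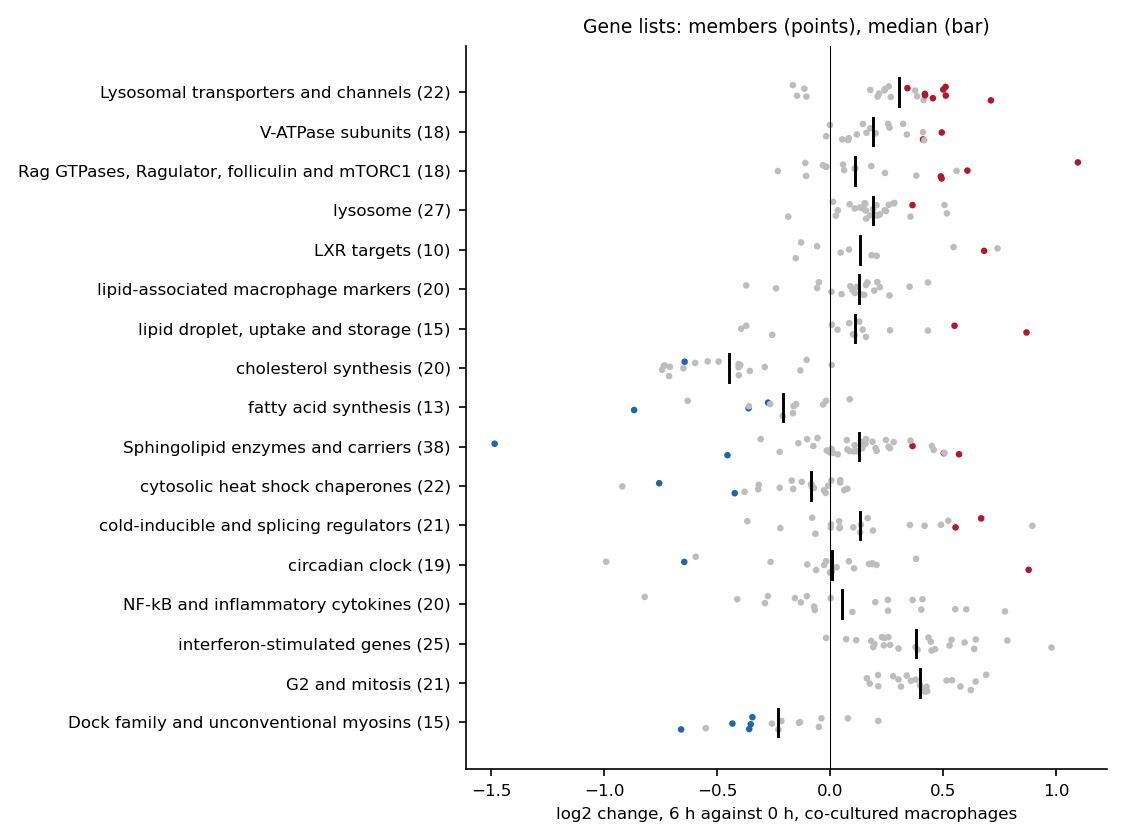
Log2 changes at 6 h over 0 h of the tested members (points) of 17 gene lists, with the number of members in brackets and the list median as a bar; red and blue points were called higher and lower, grey points were not called. The lysosome and proton pump lists have medians of 0.19 and the lysosomal transporters one of 0.30, while cholesterol synthesis has a median of -0.45 and 1 called member.

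Cholesterol synthesis genes differed between libraries, and 19 of 20 had a change below 0. Of all tested genes 49.6% had a change above 0, and 0.828% were called lower. Of the 20 enzymes 1 fell, Idi1, the isopentenyl diphosphate isomerase (12.9, 22.4 and 23.1 CPM at 6 h, 27.4, 32.3 and 30.9 CPM at 0 h, -0.64 ± 0.15, adjusted p = 0.0424). The median of the list was -0.45, with -0.96 in pair 001, -0.25 in pair 002 and -0.36 in pair 003, and in pair 001 CT010467.1 moved too, with the shares given above. Hmgcs1, which makes HMG-CoA, stood at 43.9 CPM in 6 h library 001, against 144 and 133 CPM in 6 h libraries 002 and 003, and at 160.2, 170.3 and 185 CPM at 0 h (-0.71 ± 0.28, adjusted p = 0.22). Sqle, the squalene epoxidase (-0.54 ± 0.21, adjusted p = 0.199), and Insig1, which holds SREBP back (-0.83 ± 0.29, adjusted p = 0.168), were not called. Every 6 h library lay below every 0 h library for both, and groups without overlap, in either direction, were found for 21.1% of all tested genes. In both genes 6 h library 001 was the lowest. Macrophages kept alone gave a list median of -0.98 at 6 h, with 15 of 20 enzymes called lower, against 2.67% of all tested genes there.

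Fatty acid synthesis gave 3 falls among 13 genes and no rise, with a median of -0.21. Of all tested genes 0.828% were called lower. Elovl6, which lengthens saturated fatty acids (chromosome 3, 129532355 to 129638495), stood at 15.7, 22.5 and 18.8 CPM at 6 h, against 32.2, 36.0 and 35.6 CPM at 0 h (-0.87 ± 0.15, adjusted p = 0.0162). Acly, which makes cytosolic acetyl-CoA (-0.36 ± 0.08), and Fads1, a desaturase of polyunsaturated fatty acids (-0.28 ± 0.06), fell less. Fasn, the fatty acid synthase, was not called (-0.36 ± 0.17, adjusted p = 0.31).

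Among 10 LXR targets 1 rose, Mylip, a ubiquitin ligase that limits lipoprotein uptake (75.9, 42.3 and 53.6 CPM at 6 h, 43.6, 29.5 and 33.0 CPM at 0 h, 0.68 ± 0.13, adjusted p = 0.0164), and the list median was 0.13. Mylip rose in each same-number pair, and the groups overlap because library 001 was high at both times. Abcg1 stood at 474, 207 and 291 CPM at 6 h and at 222, 150.5 and 191 CPM at 0 h (0.74 ± 0.20, adjusted p = 0.0766). Abca1 stood at 428, 149 and 247 CPM at 6 h and at 275, 124 and 152 CPM at 0 h (0.55 ± 0.24, adjusted p = 0.276). Neither exporter was called, while 0.965% of all tested genes were called higher. Of 15 genes of lipid uptake and storage 2 rose, Fabp4, a fatty acid binding protein (63.6, 46.3 and 72.8 CPM at 6 h, 32.5, 21.3 and 49.4 CPM at 0 h, 0.87 ± 0.20), and Hilpda, an inhibitor of lipid droplet breakdown (0.55 ± 0.12). Acss1, the mitochondrial acetyl-CoA synthetase, rose by 0.74 ± 0.15. Plin2, the coat protein of lipid droplets (0.16 ± 0.12, adjusted p = 0.566), the scavenger receptor Cd36 (0.11 ± 0.09, adjusted p = 0.585) and Apoe (-0.06 ± 0.20, adjusted p = 0.924) were not called. Of 20 markers of lipid-associated macrophages none was called, with a median of 0.13, Gpnmb at 0.26 ± 0.19, Trem2 at 0.09 ± 0.07 and Spp1 at 0.10 ± 0.11.

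**Figure D3:**
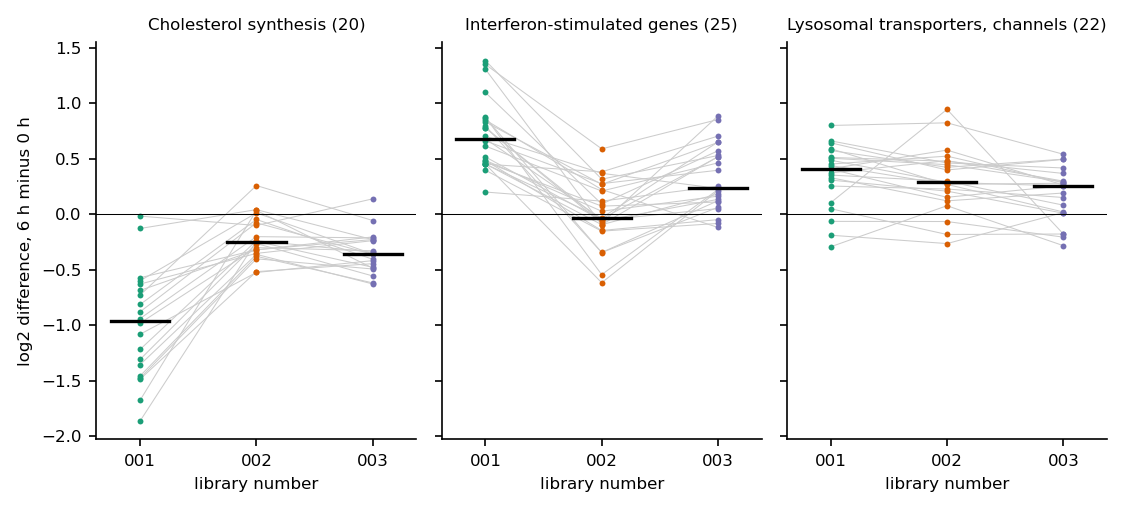
Log2 difference, 6 h minus 0 h, within each library number (001, 002, 003) for the members of 3 lists; grey lines join 1 gene and black bars are medians. The cholesterol synthesis median is -0.96 in pair 001 and -0.25 and -0.36 in the others, the interferon-stimulated median is 0.68, -0.03 and 0.23, and the lysosomal transporter median is 0.41, 0.29 and 0.26, with single members below 0 in every pair.

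Sphingomyelin genes were called in both directions. Of 38 sphingolipid enzymes and carriers, listed after the values were seen, 3 rose and 2 fell, with a median of 0.13, and Glb1 is 1 of the rises. Over all tested genes 0.965% were called higher and 0.828% lower. Sgms2, the sphingomyelin synthase of the plasma membrane, stood at 22.5, 23.1 and 28.4 CPM at 6 h, against 16.7, 15.1 and 18.1 CPM at 0 h (0.57 ± 0.11). Sgms1, the synthase of the Golgi, stood at 64.3, 64.2 and 66.2 CPM at 6 h, against 87.2, 89.3 and 90.5 CPM at 0 h (-0.46 ± 0.09). The libraries of the 2 times did not overlap for either synthase. Col4a3bp, which carries ceramide to the Golgi, rose by 0.50 ± 0.11. Smpd3, a neutral sphingomyelinase, was low in every library and fell to 1.63, 1.24 and 1.86 CPM at 6 h, against 6.51, 2.83 and 4.22 CPM at 0 h (-1.49 ± 0.35), and it overlaps Prmt7.

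The largest rises among genes with at least 10 CPM were of mixed function. Tent5c, a poly(A) polymerase (chromosome 3, 100451628 to 100489324), stood at 112, 77.6 and 97.4 CPM at 6 h, against 36.4, 39.7 and 42.3 CPM at 0 h (1.28 ± 0.25, adjusted p = 0.0262). Galnt6, which starts O-linked glycans (chromosome 15, 100691813 to 100729376), stood at 259, 279 and 299 CPM at 6 h, against 143, 129.6 and 158 CPM at 0 h (0.96 ± 0.14, adjusted p = 0.0137). Fam219a stood at 70.6, 70.3 and 87.1 CPM at 6 h, against 35.3, 35.6 and 51.9 CPM at 0 h (0.90 ± 0.11), and had the lowest adjusted p beside Mobp, 0.00485. In these 3 genes no 6 h library came down to the 0 h range. Gask1b (0.88 ± 0.17), Tm4sf19 (0.86 ± 0.20), Rilpl1, a regulator of lysosome and cilium positioning (0.77 ± 0.17), Fam102a (0.76 ± 0.13) and the glycolytic enzyme Eno2 (0.99 ± 0.20) rose. Ttc28 rose by 0.87 ± 0.21 and is at least 20 times higher in tumour cells; it and Ccnd2 were the called genes among 755 such genes tested. Below 10 CPM, Gpr162, an orphan receptor (6.62, 7.09 and 8.05 CPM at 6 h, 2.73, 1.45 and 2.35 CPM at 0 h, 1.78 ± 0.35), and Nxpe4 (1.34 ± 0.28) rose.

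**Figure D4:**
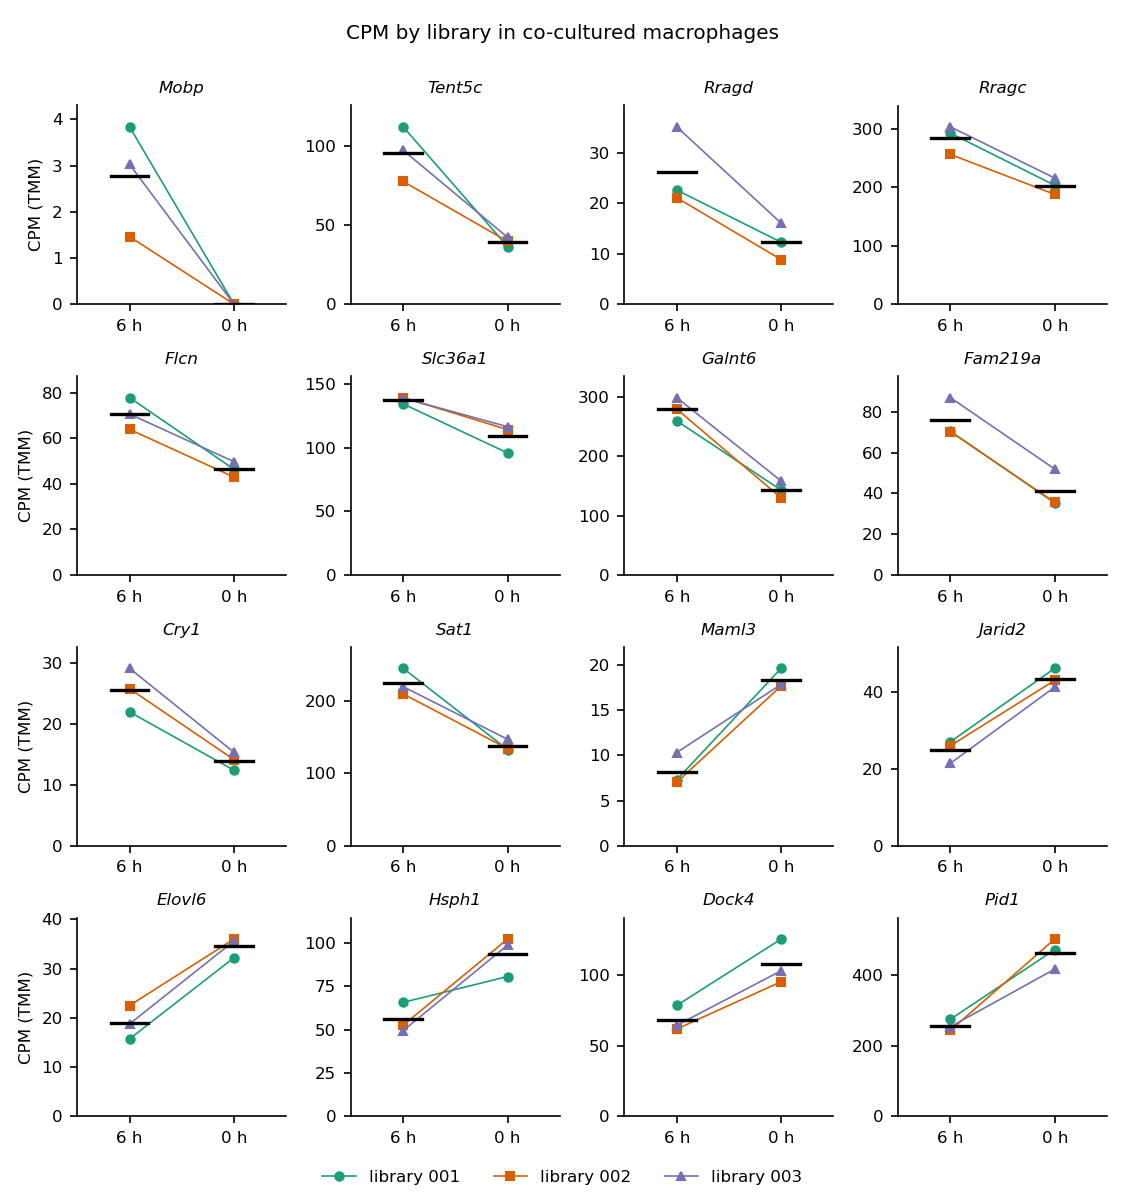
CPM after TMM normalisation in each co-cultured macrophage library at 6 h and 0 h for 16 called genes; lines join libraries of the same number and black bars are group means of 3 libraries. In the 10 genes from Mobp to Sat1 all 3 lines are higher at 6 h, and in the 6 genes from Maml3 to Pid1 all 3 are lower.

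Secreted and signalling factors were among the smaller rises. Gas6, which bridges dying cells to the receptors Axl and Mertk, stood at 155, 90.7 and 166 CPM at 6 h, against 92.5, 61.5 and 99.8 CPM at 0 h (0.68 ± 0.13), the 1 rise among 20 phagocytic and scavenger genes. Hgf, the ligand of Met, rose by 0.51 ± 0.11. Pdgfb, the growth factor that also drives this glioma model, fell to 59.6, 73.0 and 64.1 CPM at 6 h, against 88.2, 123 and 98.5 CPM at 0 h (-0.65 ± 0.15, adjusted p = 0.04), with no overlap. Sat1, which acetylates polyamines for export, stood at 245, 209.6 and 219.6 CPM at 6 h, against 133, 134 and 147 CPM at 0 h (0.70 ± 0.11, adjusted p = 0.0136). Id2, an inhibitor of helix-loop-helix factors (0.68 ± 0.14), Pfkfb3, an activator of glycolysis (0.51 ± 0.11), Atf3 (0.49 ± 0.12), the cell cycle inhibitor Cdkn1a (0.47 ± 0.11), Ier5 (0.31 ± 0.06) and the survival factor Mcl1 (0.30 ± 0.07) rose. Inflammatory genes were not called. Of 20 NF-kB and cytokine genes none passed, with Tnf at 58.8, 72.2 and 65.5 CPM at 6 h and 46.1, 34.3 and 33.8 CPM at 0 h (0.77 ± 0.28, adjusted p = 0.178), Osm at 0.41 ± 0.19 (adjusted p = 0.285) and Il1b under 6 CPM throughout.

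RNA-binding proteins and clock genes changed in a few members. Of 21 cold-inducible and splicing regulators 2 rose and none fell, Rbm3 (218, 277 and 269 CPM at 6 h, 152, 195 and 174 CPM at 0 h, 0.55 ± 0.09) and Rbmx (39.2, 36.3 and 30.5 CPM at 6 h, 22.1, 22.8 and 21.7 CPM at 0 h, 0.67 ± 0.11), with a list median of 0.13. On a wider list of 30 such genes made afterwards 6 rose, among them Ewsr1 (0.42 ± 0.08), Hnrnpll (0.40 ± 0.08) and the kinase of splicing factors Clk2 (0.40 ± 0.10), with a median of 0.10. The share called higher was 0.965% over all tested genes. Of 19 clock genes the repressor Cry1 rose (22.0, 25.8 and 29.2 CPM at 6 h, 12.4, 14.1 and 15.3 CPM at 0 h, 0.88 ± 0.13, adjusted p = 0.0128). The nuclear receptor Nr1d1 fell to 9.70, 7.90 and 7.36 CPM at 6 h, against 15.8, 12.7 and 10.8 CPM at 0 h (-0.65 ± 0.13), in a place it shares with Thra. Per1 (-0.10 ± 0.09) and Dbp (-0.99, adjusted p = 0.13) were not called. The hour of day of the 2 harvests is not given in the labels, so time of day and myelin cannot be told apart in these genes.

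Cytosolic chaperones fell in 2 of 22 members, against 0.828% of all tested genes, with a median of -0.08. Hsph1, an HSP110 chaperone, stood at 65.8, 52.6 and 49.4 CPM at 6 h, against 80.7, 102 and 98.8 CPM at 0 h (-0.76 ± 0.13, adjusted p = 0.0147). Hspa8, the constitutive HSP70, stood at 1363, 1209.6 and 1248 CPM at 6 h, against 1484, 1847 and 1816 CPM at 0 h (-0.42 ± 0.09, adjusted p = 0.0262). Library 001 showed the smallest fall of both. The Hsph1 window (minus strand of chromosome 5, 149636287 to 149636586) holds the heat shock element, the binding site of the factor HSF1, on the other strand after the gene start, marked by capitals. The element was searched on both strands and was found in 0.662% of all genes in the promoter table and in 4 of 17 chaperone genes with an entry.
Hsph1: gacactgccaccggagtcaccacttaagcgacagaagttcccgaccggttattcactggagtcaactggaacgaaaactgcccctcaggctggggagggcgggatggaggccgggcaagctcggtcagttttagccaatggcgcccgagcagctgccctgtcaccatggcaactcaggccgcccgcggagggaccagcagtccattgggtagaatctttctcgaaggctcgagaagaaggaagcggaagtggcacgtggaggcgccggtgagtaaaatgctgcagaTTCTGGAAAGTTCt

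The lower genes with at least 10 CPM included chromatin and signalling regulators. Maml3, a coactivator of Notch (chromosome 3, 51685907 to 52105076), stood at 7.30, 7.02 and 10.3 CPM at 6 h, against 19.6, 17.7 and 17.9 CPM at 0 h (-1.14 ± 0.19, adjusted p = 0.0144), the 1 call among 15 Notch pathway genes. Jarid2, a partner of polycomb repressive complex, stood at 27.0, 26.0 and 21.4 CPM at 6 h, against 46.1, 43.0 and 41.2 CPM at 0 h (-0.82 ± 0.14). Pid1, an adaptor that dampens insulin signalling, stood at 275, 244 and 254 CPM at 6 h, against 472, 503 and 417 CPM at 0 h (-0.84 ± 0.15). The 2 groups were apart in each of these genes. Zfp618 (-1.31 ± 0.29), Psd3 (-0.98 ± 0.22), Ppfia4 (-0.92 ± 0.19), Ksr2, a scaffold of the MAP kinase pathway (-0.91 ± 0.19), Ppm1l (-0.84 ± 0.20), Gsdme, a pore-forming gasdermin (-0.78 ± 0.16), Fam129a (-0.75 ± 0.17), Spice1 (-0.74 ± 0.18), Dpysl2 (-0.70 ± 0.14) and Dok2, an adaptor that restrains myeloid signalling (-0.70 ± 0.13), fell. Maml3, Gsdme and Dok2 overlap the annotated genes C130089K02Rik, Mpp6 and Xpo7. Ccnd2 (-0.69 ± 0.16), a D-type cyclin, is at least 20 times higher in tumour cells, whose share was lower at 6 h in each of the 3 pairs; their part in its fall was not tested.

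Of 15 Dock exchange factors and unconventional myosins, a list made after the values were seen, 5 fell and the other 10 were not called, 2 of them with a positive change. The median was -0.23, and 0.828% of all tested genes were called lower. Dock4 stood at 78.4, 61.8 and 64.4 CPM at 6 h, against 125, 95.3 and 103 CPM at 0 h (-0.66 ± 0.11, adjusted p = 0.0144). Dock11 stood at 95.4, 94.5 and 93.5 CPM at 6 h, against 120.3, 121 and 119 CPM at 0 h (-0.34 ± 0.08). These libraries did not overlap. Dock5 (-0.43 ± 0.11), Myo10, the motor of filopodia (-0.36 ± 0.07), and Myo18a (-0.35 ± 0.07) were the others. Smarca2, an ATPase of SWI/SNF remodelling complexes (-0.49 ± 0.08), Foxp1 (-0.48 ± 0.09), Creb1 (-0.34 ± 0.06), Igf1r (-0.55 ± 0.13), the calcium channel of the endoplasmic reticulum Itpr1 (-0.54 ± 0.09), Map3k5 (-0.47 ± 0.09), Wnk1 (-0.46 ± 0.10) and the oxysterol-binding protein gene Osbpl3 (-0.38 ± 0.09) fell. So did 2 leukocyte surface genes, Vsir, an immune checkpoint ligand (-0.47 ± 0.09), and Ptprc, which encodes CD45 (-0.36 ± 0.08). Pla2g4c, a cytosolic phospholipase of low level, fell to 0.768, 0.439 and 0.275 CPM at 6 h, against 2.52, 2.03 and 1.95 CPM at 0 h (-2.16 ± 0.43).

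Several lists leaned one way with no called member, and 49.6% of all tested genes had a positive change. Of 25 interferon-stimulated genes 24 had a positive change, with a median of 0.38, yet pair 002 gave -0.03, and Rsad2 (0.98, adjusted p = 0.17) and Ifit1 (0.78, adjusted p = 0.16) were furthest. All 21 genes of G2 and mitosis had a positive change, with a median of 0.40 and pair medians of 0.57, 0.13 and 0.48, led by Ccnb1 (0.69, adjusted p = 0.12). Transcripts of the mitochondrial genome had a median of 0.77 in pair 001, -0.01 in pair 002 and -0.09 in pair 003, and none of the 10 tested was called. Antigen presentation (18 genes), endoplasmic reticulum chaperones (18), NRF2 targets (17), chemokines (18) and fatty acid oxidation (16) held no called gene, with medians between -0.06 and 0.04.

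Macrophages kept alone were treated in the same way, and their libraries are separate from those above. All 18 macrophage libraries were fitted together, so both sets of calls share the spread estimate of each gene and the library number block. The overlap of the calls is therefore no independent check. There the test called 668 genes (5.07%), of which 317 were higher (2.41%) and 351 lower (2.67%). Of the 668, 145 were called in the same direction in co-culture, which is 61.4% of the co-culture calls and 21.7% of the mono-culture calls. No gene was called in opposite directions. Of the 236 genes, Abcb1a and Pdgfb had a mono-culture change of the opposite sign. The difference between the cultures in the 6 h change was tested for each gene by edgeR, and 0 of 13165 passed, with 495 at an unadjusted p under 0.05, a lowest adjusted p of 0.58 and 3 genes called by DESeq2, namely Gm8995, Rai14 and Stat2. Abca1 changed by 0.55 ± 0.24 in co-culture and 2.04 ± 0.26 in mono-culture, a difference of -1.49 ± 0.35 (adjusted p = 0.91), and Mylip by 0.68 ± 0.13 in co-culture and 1.45 ± 0.13 in mono-culture, a difference of -0.77 ± 0.18 (adjusted p = 0.863). The cultures also differed in level before myelin. Mean Abca1 was 184 CPM at 0 h and 275 CPM at 6 h in co-culture, against 47.1 and 185 CPM in mono-culture. Mean Mylip was 35.4 and 57.3 CPM in co-culture, against 22.2 and 58.7 CPM in mono-culture. At 0 h Tent5c, Elovl6 and Idi1 had 39.5, 34.6 and 30.2 CPM in co-culture, against 12.2, 48.3 and 51.5 CPM in mono-culture. These 0 h differences were not tested. Pdgfb changed by -0.65 ± 0.15 in co-culture and 0.01 ± 0.14 in mono-culture, a difference of -0.66 ± 0.20 (adjusted p = 1). With number 001 left out of every group 20 genes passed for the difference. Among them the changes of Hmgcs1, Fdft1, Cyp51, Hsd17b7, Lss, Sc5d, Stard4, Insig1 and Fasn were above those of mono-culture (differences of 0.70 to 1.48), and those of Mylip (-0.96), Pdgfb (-0.69), Sgk1 (-0.81), Rai14 (-0.85) and Spsb1 (-1.999) were below. Ccl4, Gm8995, Mindy2 and Stat2 passed in that fit too.

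**Figure D5:**
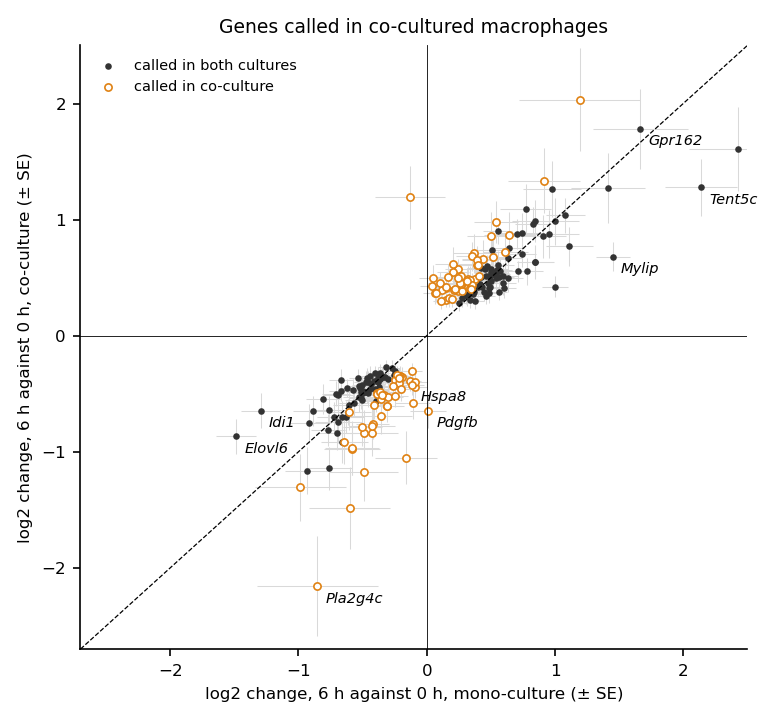
Log2 change at 6 h over 0 h in co-culture (vertical) against that in mono-culture (horizontal) for the genes called in co-culture, with SE bars and the line of equal change; Mobp and Plekhb1 lie outside the axes. Filled points are the genes called in both cultures and open points those called in co-culture; Mylip, Tent5c, Elovl6 and Idi1 lie nearer to 0 in co-culture than in mono-culture, and Pdgfb lies at 0.01 in mono-culture, none with a called difference.

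The levels of the same genes at 24 h in co-culture, a comparison that shares the 0 h libraries, are set beside those of 6 h for the main members. Elovl6 had mean levels of 34.6 (0 h), 19.0 (6 h) and 12.7 CPM (24 h), and Idi1 had 30.2, 19.4 and 8.72 CPM at the same times. Gas6 had mean levels of 84.6 (0 h), 137 (6 h) and 232 CPM (24 h), and Pdgfb had 103, 65.6 and 38.4 CPM. Tent5c had mean levels of 39.5 (0 h), 95.7 (6 h) and 89.3 CPM (24 h). Cry1 had mean levels of 14.0 (0 h), 25.6 (6 h) and 15.7 CPM (24 h), and Zfp618 had 10.6, 4.29 and 12.0 CPM. Glb1 had mean levels of 96.4 (0 h), 124 (6 h) and 159.6 CPM (24 h), and Slc36a1 had 109, 138 and 124 CPM.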

How the data were processed

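RNA of sorted macrophages was primed with oligo-dT and extended by template switching, per the labels' protocols. The deposited table holds the authors' raw counts per gene for 29883 genes in 36 libraries, on build mm10 per the submitters' processing notes; aligner, counter and strand setting: not given in the sources used here. The 18 macrophage libraries held 7911378 to 14708387 counts. They were fitted together with edgeR 4.0.16 in R 4.3.3 (TMM, expression filter, robust quasi-likelihood test, Benjamini-Hochberg over 13165 genes), with group and library number as terms; DESeq2 1.42.0 was an alternative. SE is the absolute log2 change over sqrt(F). Library numbers were taken to pair the groups, since deviations of same-numbered libraries correlated (0.323, 0.157 and 0.376, each above 0.1). Libraries of different number gave -0.321 to 0.169, and the highest of these, 6 h library 003 with 0 h library 002, was above the value of pair 002. No 2 libraries compared agreed within sampling noise.

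Named were the 15 largest called changes per direction with at least 10 CPM, up to 4 called members per list, 29 genes followed throughout, and 43 genes chosen after their values were seen. Members and lists were chosen with earlier results of these data known; 7 lists were added after values were seen. Simulated data of 13165 genes for this comparison held 200 changed genes, all with a mean of at least 10 CPM. Of those changed by 1.4-fold 64% were recovered, and of those changed by 2-fold 98%, with 4 of 184 calls false. Counts were drawn from the fitted model with its block, so these shares hold only where that model is right. Promoter sequences are RefSeq, build GRCm38.p6. Alternatives covered the block, the libraries fitted, size factors, filters, dispersions, tumour cell genes, number 001, single libraries and DESeq2. Counting intervals and limits cover counting error only. No column was left unmapped, and other cell types and times served only where named. Results of a few genes are not reported here.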

Additional observations from a re-analysis of the deposited data

Results flagged for a closer look

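Signal of 2 transcripts appeared in libraries outside the comparison of co-cultured macrophages at 6 h with 0 h, above the level in their own 0 h libraries. Mobp, the myelin transcript, reached 2.61 CPM over the 3 macrophage libraries kept alone at 6 h (91 counts), against 0 counts at 0 h, which is at least 31.1-fold above the limit of 3 counts over the group. At 24 h it was at 0.543 CPM in macrophages kept alone (20 counts) and at 0.647 CPM in co-cultured macrophages (23 counts), with 0 counts at 0 h in both. Plekhb1 reached 0.688 CPM in macrophages kept alone at 6 h (24 counts), against 1 count at 0 h. Groups of 3 libraries are too small for the test of single outlying libraries used here.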

How the results depend on the processing

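The count of 236 called genes (127 higher, 109 lower) moved with the model. Without the replicate block 28 passed, with a block within each culture 725, with the 6 libraries alone and the block 1345, with the 9 co-cultured libraries 741, with number 001 left out throughout 548, and by DESeq2 with the block 554 (250 higher, 304 lower). Leaving out 1 library gave 0 to 140 genes. Other settings gave 226 to 351, among them a mean of at least 5 CPM with 351 (143 higher, 208 lower, 40.7% higher), tumour cell genes left out with 286 (41.3% higher), RLE size factors with 237 (113 higher, 124 lower) and CT010467.1 and Lars2 left out, chosen after seeing the data, with 226; the higher share was 53.8% in the fit reported. The difference between cultures, 0 genes, became 4 with a block within each culture, 20 without number 001, 3 by DESeq2 and 0 to 2 with 1 library left out. The tumour cell share difference ran from -1.03 to 0.322 percentage points with 1 library left out, and reversed without 6 h library 001 (0.151) and without 0 h library 002 (0.322); these are differences of group means that keep the partner of the library left out. All 96 called genes named kept their direction wherever tested, in fits that reuse the libraries that selected them. Of these 96, 17 were called without the block. Changes of sign occurred in the uncalled genes Apoe (0.00691 without number 001, and -0.11 to 0.0130 with 1 library left out), Per1 (0.0347 without number 001, and -0.20 to 0.00816) and Il1b (-1.60 to 0.139). The cause of these moves was not tested. On data simulated from the fitted model, 64% of 1.4-fold changes in genes of at least 10 CPM were recovered at this depth and number of libraries.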
